A study of Danio rerio with 12 samples.

Results

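Regions of open chromatin that were prominent in control zebrafish gastrulae and receded in gastrulae exposed to all-trans retinoic acid (atRA) numbered 610, out of 72762 regions that were prominent in at least 1 of 4 libraries at the stage of 80% epiboly. They are called lost regions here. Accessibility was measured by ATAC-seq, in which a transposase cuts and tags DNA that is not packed away and the tagged fragments are sequenced. Peaks of each library were ranked by their deposited −log10 p-value, then by fold enrichment, then by position. In each library the best 50000 peaks were its top set and the best 100000 its wide set. A lost region overlapped the top set of both libraries from embryos given the solvent dimethyl sulfoxide (DMSO) and the wide set of neither atRA library. The members were thus chosen by their ranks in all 4 libraries at 80% epiboly, and values from those libraries are given as a description. The lost regions made up 0.838% of all regions at the stage, and 43013 regions were in both DMSO top sets. Coordinates are on GRCz10.

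Retinoic acid is a derivative of vitamin A that embryos make from the gastrula stage onward, in mesoderm flanking the future trunk, and degrade toward the head. It enters the nucleus and binds retinoic acid receptors that sit on DNA as partners of retinoid X receptors, exchanging corepressors for coactivators. Added retinoic acid at gastrulation is known for giving the neural plate a more posterior character, at the expense of the forebrain and midbrain. At 80% epiboly the sheet of cells has covered most of the yolk and the body axis is being laid down. Accessible regions away from gene starts are often enhancers, which open and close as cells change fate.

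All embryos were whole wild-type Danio rerio, dechorionated and freed of yolk before lysis, per the labels' protocols. The groups were 80% epiboly atRA and 80% epiboly DMSO, whose exposure began at 30% epiboly, then 12 somites atRA and 12 somites DMSO, and 24 hpf (hours post fertilization) atRA and 24 hpf DMSO. For the groups at 12 somites and 24 hpf the exposure began at 80% epiboly, so their atRA embryos passed most of gastrulation untreated and are not the later state of the treated gastrulae. The dose of atRA was 0.1 µM, and each of the 6 groups had 2 libraries. The labels do not say whether the replicates came from separate clutches. In whole embryos, fewer cells of a type and less open chromatin per cell cannot be told apart.

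Lists held 154354 to 439137 peaks. Fragment totals are unknown. As a measure of depth, the most frequent background pileup of a list was recovered from the fold and p-value of each peak, and it ran from 0.69 to 3.28. At 80% epiboly it was 2.47 and 0.87 in atRA replicates 1 and 2, against 3.18 and 3.28 in DMSO replicates 1 and 2. atRA replicate 2 was thus the shallowest library of its stage, and its part in the loss was not tested. Without it the rule gave 1679 lost regions, without atRA replicate 1 it gave 2156, and without DMSO replicate 1 or 2 it gave 1277 or 1422. Leaving out any of these libraries takes 1 condition from the rule, and the looser rule admits more regions. The rise therefore does not bear on the quality of the library left out. The DMSO pair at 80% epiboly shared 86.4% of top-set peaks, more than any other same-stage pair (70.8% to 80.6%). The atRA pair of that stage shared 74.8%, no more than the 4 pairs of an atRA and a DMSO library (74.8% to 76.3%), so the treated replicates were no more alike than treated and control libraries were. Summit pileups of the DMSO pair had an index of dispersion of 0.303, less than binomial sampling gives and the lowest of all same-stage pairs. At 80% epiboly the atRA pair had 1.49 and the pairs across treatments 1.304 to 1.54, while same-stage pairs at 12 somites and 24 hpf, across treatments too, had 0.466 to 0.802. The DMSO libraries were counted as 2 samples, as labelled. With 1 of them alone, and so a looser rule, 1277 or 1422 regions were lost.

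Many lost regions still held a low-ranked peak with atRA. A peak of some rank was listed in 570 of the 610 regions (93.4%) in atRA replicate 1 and in 301 (49.3%) in atRA replicate 2, whose list was the shortest of all, against 99.5% and 94.9% of all regions in those lists. Where a peak was listed, its median rank was 139242 in atRA replicate 1 and 122322 in atRA replicate 2, against 38152 and 38948.5 in DMSO replicates 1 and 2. The median fold enrichment, the authors' ratio of the peak to its local background in the same library, was 5.48 and 4.29 in the atRA replicates, against 10.2 and 10.05 in the DMSO replicates. Median summit pileups were 20 and 8 fragments with atRA and 49 in each DMSO replicate. For all regions with a listed peak, median pileups were 44 and 18 with atRA, against 54 and 55 with DMSO. Their median folds were 9.43 and 7.82 with atRA, against 9.28 and 9.25 with DMSO. The rule itself kept the atRA values of lost regions low. Peaks tied across the limit of the wide set had summit pileups of 23 and 8 in atRA replicates 1 and 2. The part of depth in these values was not tested. Only 29 lost regions (4.75%) had no peak in either atRA list, against 0.162% of all regions. A missing peak means a signal under the caller's threshold at the depth of those lists. Lost regions sat low in the control top sets. Of the 610, 383 had a worse DMSO rank (the larger of the pair) beyond 40000, and 11 had one within the first 20000. Of the 43013 regions in both DMSO top sets, 8562 had one beyond 40000 and 17137 within the first 20000.

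The lost region with the best control ranks was chr9:23109568-23109946. It ranked 280094 in atRA replicate 1 and had no peak in atRA replicate 2, against ranks 6005 and 3674 in DMSO replicates 1 and 2. Its summit pileup was 15 in atRA replicate 1, against 99 and 105 in the DMSO replicates. No list at 12 somites or 24 hpf, with atRA or with DMSO, held a peak there. The region was thus seen open only in the control gastrulae and, faintly, in 1 treated gastrula library.

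A region on chromosome 12, chr12:11285858-11286317, was also not seen again. Its ranks were 169017 and 126990 with atRA, against 11003 and 7828 with DMSO, and none of the 8 later lists held a peak there. Summit pileups were 17 and 7 with atRA, against 65 and 70 with DMSO. The other regions named for having no later peak, chr5:26043472-26043815 and chr5:33980752-33981006, ranked 107419 and 127133 in atRA replicate 1, against 20699 and 21229 in DMSO replicate 1. chr5:26043472-26043815 had no peak in atRA replicate 2, and chr5:33980752-33981006 ranked 144781 there.

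Other regions that were strong in control gastrulae were also open at 12 somites. chr16:53294772-53295090 ranked 208131 in atRA replicate 1 with no peak in atRA replicate 2, against 3420 and 10038 with DMSO. At 12 somites it stood in the top set of all 4 libraries, at ranks 36075 and 13455 with atRA and 29779 and 15151 with DMSO. At 24 hpf none of the 4 lists held a peak there. chr25:9414193-9414543 followed the same course. It had no peak in atRA replicate 1 at 80% epiboly and rank 108255 in atRA replicate 2, against 17337 and 16028 with DMSO. In atRA replicate 2 the peaks from rank 98864 to 108465 were tied across the wide-set limit. The membership of this region thus rests on position. Its ranks at 12 somites were 14194 and 9270 with atRA, against 5173 and 11569 with DMSO, better than those of the control gastrulae. At 24 hpf the only peak was one at rank 162166 in atRA replicate 1. Both regions were open at 12 somites whether or not the embryos had received atRA.

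The other 4 of the 8 best ranked lost regions were in no later top set. chr5:31023876-31024226 had ranks of 122122 and 136240 with atRA, against 10596 and 4870 with DMSO, and its best later rank was 56898 in 12 somites DMSO replicate 1. chr3:25055239-25055593 ranked 116295 in atRA replicate 1, against 9232 and 14021 with DMSO, and was scattered over 5 of the later lists at ranks from 56089 to 143283. chr22:14115283-14115600 lay at the edge of the rule, at rank 101034 in atRA replicate 1, against 15227 and 11446 with DMSO, and faded to ranks beyond 100000 in the 4 libraries at 12 somites. In atRA replicate 1 the peaks from rank 98581 to 101369 were tied across the wide-set limit, so its membership also rests on position. chr9:7768539-7768867 ranked 264190 in atRA replicate 1, against 11407 and 17323 with DMSO, and its only later peak was at rank 132529 in 24 hpf DMSO replicate 2.

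**Figure D1:**
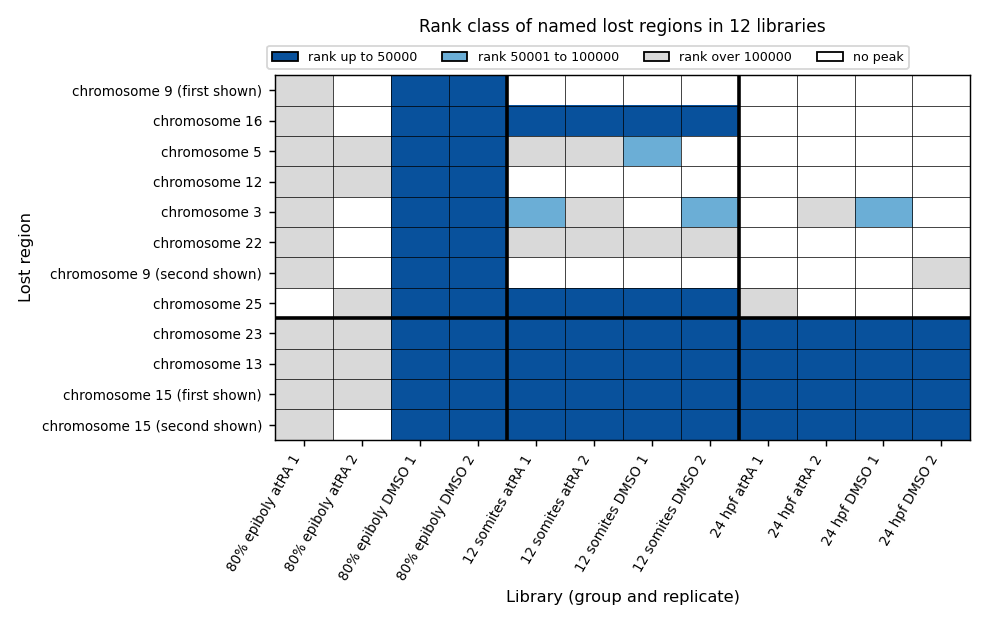
Rank class of 12 lost regions (rows, by chromosome) in the 12 libraries (columns, by group and replicate). The 8 rows above the line are those with the best control ranks, of which 2 are in the top set at 12 somites and none at 24 hpf, and the 4 rows below it are in the top sets of all 8 later libraries.

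No peak was listed in either atRA library at 80% epiboly for 29 lost regions (4.75%), against 0.162% of all regions. The one with the best control ranks, chr9:46748263-46748638, had no peak with atRA, against ranks 24839 and 23242 with DMSO and summit pileups of 52 and 54. Its only later peak ranked 222608, in 12 somites atRA replicate 1. The next by the same ordering, chr6:42604861-42605114, had no peak with atRA, against ranks 12322 and 27782 with DMSO. At 12 somites it entered the top set of atRA replicate 1 alone (rank 46742), while DMSO replicate 2 had it at rank 64716 and the other 2 libraries had no peak. The next ones, chr17:52545873-52546158 and chr16:38444155-38444626, reached summit pileups of 73 and 58 in DMSO replicate 1. On chromosome 17 the only later peak ranked 227252, in 12 somites DMSO replicate 2. On chromosome 16 both 12 somites atRA libraries held a peak, at ranks 51747 and 47500, and no other later list did. The last of the 6 named, chr5:36994161-36994632 and chr21:25025447-25025736, with ranks 31059 and 19857 and ranks 21613 and 32242 in the DMSO replicates, were in no later top set. The 29 regions were in top sets at a mean of 3.45% over the 4 libraries at 12 somites and 3.45% over those at 24 hpf. The share was 6.90 points higher with atRA than with DMSO at 12 somites and did not differ at 24 hpf. With so few regions, 1 region moves such a share by more than 3 points.

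The edge of the rule cuts a continuous range. Just inside the limit set on atRA ranks lay chr13:10384169-10384616, at rank 100064 in atRA replicate 1, and just outside it chr12:25051704-25052022, at rank 99993. Both had a summit pileup of 23 there and the same fold enrichment, 6.92. In that list 2789 peaks were tied on p-value and fold across the limit, in atRA replicate 2 there were 9602, and position alone split them. Through such ties, here and at the limit on DMSO ranks, 119 lost regions (19.5%) are members. Counting all tied peaks as inside their sets, a choice made after seeing the data, left 510 lost regions, and counting them as outside gave 633. At the limit on DMSO ranks, chr7:19137257-19137643 was inside at rank 49982 in DMSO replicate 1, and chr7:50787015-50787343 outside at rank 50028 in DMSO replicate 2.

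The libraries at 12 somites and 24 hpf took no part in the rule. In them, few lost regions were prominent, whichever treatment the embryos had received. At 12 somites, 73 and 69 of the 610 lost regions (12.0% and 11.3%) were in the top sets of atRA replicates 1 and 2, and 51 and 54 (8.36% and 8.85%) in those of DMSO replicates 1 and 2. The same top sets held 52.9% and 54.0% of all 72762 regions with atRA and 50.7% and 54.4% with DMSO. At 24 hpf the counts were 85 and 86 lost regions (13.9% and 14.1%) with atRA and 92 and 90 (15.1% and 14.8%) with DMSO, while the top sets held 49.3% and 48.6% of all regions with atRA and 49.1% and 50.3% with DMSO. In each of the 8 libraries the share of lost regions lay far below that of all regions. For the larger sets found without 80% epiboly atRA replicate 1 or 2 the mean share was 20.3% or 18.8% at 12 somites. Without replicate 2 it was 26.4% at 24 hpf. The 422 gained regions, in both atRA top sets and neither DMSO wide set at 80% epiboly, also lay below all regions in each library. Their shares were 36.5% to 42.9% at 12 somites and 26.1% to 30.6% at 24 hpf. A peak of any rank was listed in 394 and 361 lost regions with atRA and in 232 and 346 with DMSO at 12 somites, and in 268 and 247 with atRA and 311 and 345 with DMSO at 24 hpf. Of all regions, a peak was listed in 93.5% and 92.1% with atRA and in 79.5% and 91.8% with DMSO at 12 somites, and in 81.8% and 77.3% with atRA and 83.5% and 88.6% with DMSO at 24 hpf.

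Regions in the top sets of both treatments at 80% epiboly had higher later shares. Kept regions, the 31067 that all 4 top sets of that stage held, were in later top sets at 76.6% to 81.4% at 12 somites and 72.1% to 74.8% at 24 hpf. Between them and the lost regions stood 3736 weakened regions, in both DMSO top sets and no atRA top set but in at least 1 atRA wide set. Their shares were 20.7% to 26.3% at 12 somites and 28.5% to 30.2% at 24 hpf. The 7600 regions in both DMSO top sets and 1 atRA top set had shares between 39.5% and 46.0%. The 4 classes therefore fell in the same order in each of the 8 later libraries, lost below weakened, weakened below those with 1 atRA library, and kept highest. No test was made of this order, since members and classes were chosen with results of these data known.

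**Figure D2:**
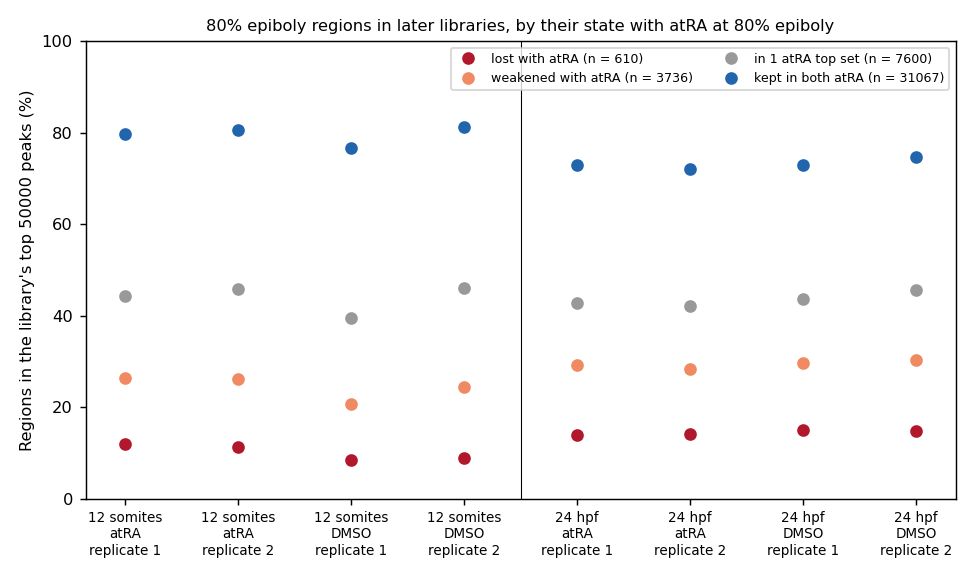
Percentage of 80% epiboly regions found in the top 50000 peaks of each later library, by the class their ranks at 80% epiboly gave them. Lost regions lie between 8.36% and 15.1% in the 8 libraries, weakened regions between 20.7% and 30.2%, and kept regions between 72.1% and 81.4%.

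Lost regions had lower control ranks than kept ones, so the shares were also read among regions of like rank. Of regions whose worse DMSO rank lay above 40000 and up to 50000, lost regions were in the top sets at a mean of 9.14% over the 4 libraries at 12 somites (7.57% to 11.7%), weakened regions at 23.2% and kept regions at 61.1%. For ranks above 30000 and up to 40000 these values were 9.01%, 26.0% and 67.2%. At 24 hpf, lost regions of the weakest control ranks were in the top sets at 12.5% (10.7% to 13.6%), weakened regions at 27.4% and kept regions at 51.3%. With ranks above 30000 and up to 40000 the shares were 18.8%, 31.6% and 58.8%. Among ranks above 20000 and up to 30000, with 55 lost regions, their mean share was 18.6% at 12 somites and 17.7% at 24 hpf, against 73.7% and 66.0% of kept regions. The class of best ranks held 11 lost regions, too few to read. In each class of control rank that held more than 11 lost regions, their share was below those of weakened and kept regions. Only DMSO ranks were matched, and lost and kept regions still differed in atRA rank by definition. The part of signal strength in the later shares was not tested.

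**Figure D3:**
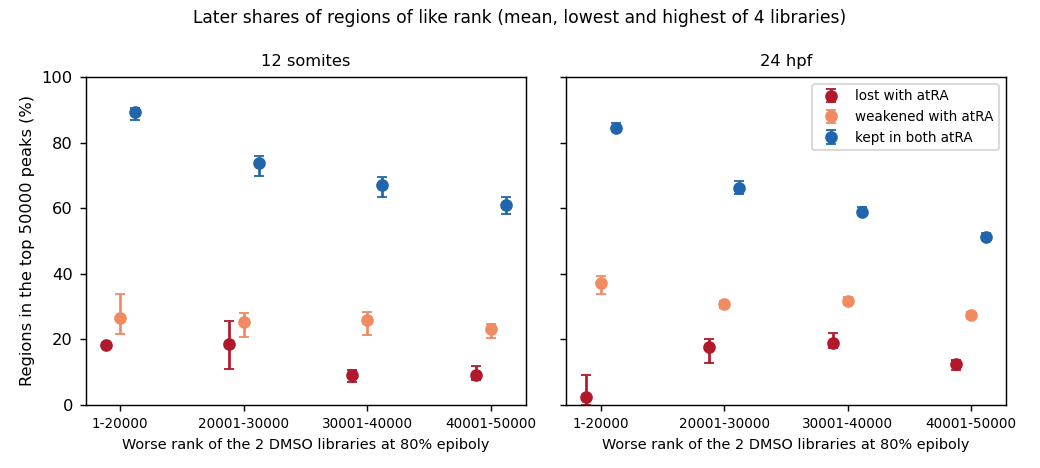
Percentage of lost, weakened and kept regions in later top sets, for regions of like control rank at 80% epiboly (points are means over 4 libraries, bars reach the lowest and highest library). Lost regions lie lowest in each class of rank, and the leftmost class holds 11 of them.

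Counted by region, 416 of the 610 lost regions (68.2%) were in none of the 8 later top sets, against 7.02% of kept regions and 24.4% of all regions. Of gained regions, 32.2% were in none. At the other extreme, 7 lost regions (1.15%) were in all 8, against 54.6% of kept regions and 28.5% of all regions. Leaving out 12 somites DMSO replicate 1, the shallowest list, 14 were in all the others. A peak of any rank was missing from the 8 later lists in 79 lost regions (12.95%), against 0.148% of kept regions and 1.45% of all regions. For 98 lost regions (16.1%) a peak of some rank was listed in all 8, against 84.8% of kept regions and 61.5% of all regions. Between these ends, each number of lists from 1 to 7 applied to 46 to 84 lost regions. The wide sets of the 8 libraries left out 255 lost regions (41.8%), against 1.26% of kept regions and 7.63% of all regions. Lost regions therefore ranged from sites never seen again to sites with a peak in each list through 24 hpf.

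**Figure D4:**
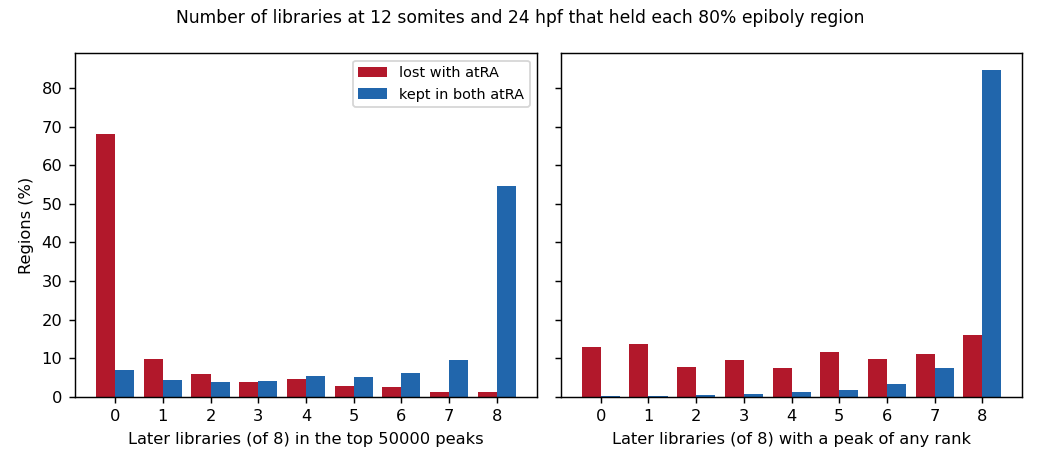
Number of later libraries, of 8, whose top 50000 peaks (left) or whole list (right) held a region, as a percentage of lost and of kept regions. In the left panel 68.2% of lost regions stand at 0 libraries and 54.6% of kept regions at 8.

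The 7 lost regions in all later top sets ranked low in the atRA libraries of the gastrula and were prominent at the later stages. With all tied peaks counted inside their sets, 5 lost regions were in all later top sets. chr15:24972719-24973102 ranked 108743 and 128463 in atRA replicates 1 and 2 at 80% epiboly, against 29363 and 31398 in DMSO replicates 1 and 2. At 12 somites its ranks were 8817 and 15531 with atRA, against 13120 and 18420 with DMSO, and at 24 hpf 11738 and 10150 with atRA, against 8307 and 6868 with DMSO. It thus ranked better in each later library than in the control gastrulae. chr13:25374672-25375313 had ranks of 118040 and 103939 with atRA, against 22025 and 27855 with DMSO, and later reached ranks of 10854 in 24 hpf atRA replicate 1 and 14217 in 12 somites atRA replicate 1. Its rank of 103939 lay among the peaks of atRA replicate 2 tied across the limit, ranks 98864 to 108465. The membership of this region thus rests on position. At 12 somites its atRA ranks, 14217 and 21120, were better than its DMSO ranks, 38709 and 40053. The summit pileup there was 37 and 29 with atRA, against 11 and 18 with DMSO, in lists whose background pileup was also higher with atRA (1.6 and 1.44, against 0.69 and 1.15). chr23:17567262-17567665 and chr15:2676954-2677655 completed the 4 named by the rule, with ranks of 130176 and 128890 in atRA replicate 1 at 80% epiboly, against 23529 and 35443 in DMSO replicate 1. The first of them reached rank 8873 in 12 somites DMSO replicate 2, and the other rank 8818 in 24 hpf DMSO replicate 1.

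More lost regions were in top sets at 24 hpf than at 12 somites. In DMSO embryos the mean share was 14.9% ± 0.232 at 24 hpf and 8.61% ± 0.348 at 12 somites (SD, n = 2 each), a difference of 6.31 percentage points. In atRA embryos it was 14.0% ± 0.116 at 24 hpf and 11.6% ± 0.464 at 12 somites, a difference of 2.38 points. By top sets, the libraries of the stages did not overlap in either treatment. Wide-set shares in DMSO embryos were 24.6% and 26.4% at 12 somites and 31.6% and 30.8% at 24 hpf. In atRA embryos they were 30.5% and 28.9%, against 29.5% and 29.8%, and overlapped. Background pileups of the DMSO lists were 0.69 and 1.15 at 12 somites and 1.39 and 2.03 at 24 hpf. With atRA they were 1.6 and 1.44, then 2.03 and 1.98, and their part was not tested. The DMSO difference in top-set share was 2.30 points for the lost regions found without 80% epiboly atRA replicate 1 and 11.3 points without replicate 2. Kept regions moved the other way, by -5.19 points in DMSO and -7.73 points in atRA, as did all regions, by -2.84 and -4.47 points, while weakened regions moved by 7.39 and 2.62 points. Both DMSO top sets at 24 hpf but neither at 12 somites held 35 lost regions (5.74%), against 2.06% of kept regions and 3.81% of all regions. They held 6.96% of weakened regions and 5.87% of those in 1 atRA top set, so this course was not particular to lost regions. By stage, both DMSO top sets held 69 lost regions (11.3%) at 24 hpf, against 43.1% of all regions, and 24 (3.93%) at 12 somites, against 43% of all regions. Both atRA top sets held 56 (9.18%) at 24 hpf, against 41.9%, and 41 (6.72%) at 12 somites, against 46.7%. All 4 held 42 (6.89%) at 24 hpf, against 37%, and 13 (2.13%) at 12 somites, against 37.2%. In both DMSO top sets of both stages were 12 lost regions (1.97%), against 32.7% of all regions. The reverse of the course above, both at 12 somites and neither at 24 hpf, was found for 10 lost regions (1.64%), against 5.60% of kept regions and 5.38% of all regions.

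A neighbouring pair on chromosome 23 showed this course. chr23:23236402-23236968 ranked 142359 and 131682 with atRA at 80% epiboly, against 22502 and 33710 with DMSO. At 12 somites 1 of the 4 libraries had it in the top set, atRA replicate 2 at rank 43355, and both DMSO libraries had it lower, at 128648 and 76926. At 24 hpf the ranks were 15532 and 9895 with atRA, against 13010 and 9252 with DMSO. Its neighbour chr23:23252723-23253025 was in no top set at 12 somites and in all 4 at 24 hpf, at ranks 37707 and 17998 with atRA, against 16357 and 21651 with DMSO. A lost region a little farther along, chr23:23297059-23297403, was in no later top set.

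The comparison of treatments within the later stages concerned embryos that had met atRA only after 80% epiboly. At 12 somites the share of lost regions in the top set was 11.6% ± 0.464 with atRA and 8.61% ± 0.348 with DMSO (SD, n = 2 each), 3.03 percentage points higher with atRA, and the groups did not overlap. For lost regions found without 80% epiboly atRA replicate 1 or 2 the difference was 1.299 or 6.19 points, and without DMSO replicate 1 it was 1.61 points. Weakened regions differed by 3.59 points and kept regions by 1.25 points, and all regions by 0.911 points, the last 2 with overlapping groups. Background pileups at 12 somites were 1.6 and 1.44 with atRA and 0.69 and 1.15 with DMSO, and their part in the difference was not tested. At 24 hpf the shares of lost regions were 14.0% ± 0.116 with atRA and 14.9% ± 0.232 with DMSO. The difference was -0.902 points, without overlap of the groups. Kept regions differed by -1.30 points and all regions by -0.722 points, both with overlapping groups. Groups did not overlap either for weakened regions (-1.18 points), those in 1 atRA top set (-2.11) and all in both DMSO top sets (-1.43). Gained regions differed by 4.03 points, also without overlap. For lost regions found without 80% epiboly atRA replicate 1 the difference was -1.95 points, and without DMSO replicate 1 it was -0.117 points. In the lists of 24 hpf DMSO embryos the peak names have a word that other lists lack. Should it stand for a batch, its effect cannot be told apart from that of atRA there. With 2 libraries a group, the exact permutation test allows no two-sided p below 0.333, and none is given.

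No lost region of the gastrula was lost a second time by the same rule at 12 somites or at 24 hpf. Of all regions at 80% epiboly, 0.111% and 0.15% were, so none among 610 is near those shares. The rule also requires both DMSO top sets, which held 24 lost regions at 12 somites and 69 at 24 hpf. When 1 of 7 later libraries was left out, 1 to 3 regions were lost again. Several other settings, among them reciprocal overlap, larger sets and the limit on q, also gave regions lost again, as listed with the alternatives below. Gained at 12 somites, in both atRA top sets and neither DMSO wide set, were 3 lost regions (0.492%), against 0.198% of all regions, and none was gained at 24 hpf, against 0.0673%. At 12 somites the share was 0.455% of weakened, 1.18% of gained and 0.0901% of kept regions, so it was not particular to lost regions. By the rule, the 3 lost regions changed sides with the treatment. chr15:35210808-35211027 ranked 108772 at 80% epiboly in atRA replicate 1, with none listed in atRA replicate 2, against 47351 and 33216 with DMSO. At 12 somites it ranked 24065 and 22907 with atRA, against 148660 and 102865 with DMSO. At 24 hpf the order turned back, with ranks of 140597 and 75791 with atRA, against 43891 and 30510 with DMSO. chr4:18752833-18753104 ranked 38994 and 27181 with atRA at 12 somites, against 116911 and 141605 with DMSO, and was in all 4 top sets at 24 hpf. chr6:27563511-27563814 ranked 43858 and 40830 with atRA at 12 somites, against 102357 and 200286 with DMSO, and at 24 hpf was in the top set of atRA replicate 2 alone. These are 3 regions of 610, each with 2 libraries a group, and for chr15:35210808-35211027 and chr6:27563511-27563814 the better DMSO rank, 102865 and 102357, lay just beyond the limit. Rank 102865 was among 6515 peaks of 12 somites DMSO replicate 2 tied across the limit, ranks 98850 to 105364. Position alone thus made chr15:35210808-35211027 a gained region.

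Where a later peak was listed in a lost region, it usually lay at the same place. Relative to the summit in 80% epiboly DMSO replicate 1, the median distance of later summits was 19 to 30 bp in the 8 lists, and 63.2% to 77.3% of them lay within 50 bp. For kept regions these values were 16 to 23 bp and 72.6% to 78.2%. The summit in 80% epiboly DMSO replicate 2 lay a median of 9 bp away in both classes.

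Lost regions were somewhat narrower than other regions of the stage. Their median width was 341 bp (284.25 to 439.25 bp for the middle of the range, from the lower to the upper quartile), against 441 bp for kept regions, 360 bp for weakened regions, 420 bp for all regions in both DMSO top sets and 371 bp for all 72762 regions. A region is the union of its peaks, so kept regions had peaks of 4 top sets to widen them and lost regions those of the DMSO pair. Gained regions, the 422 in both atRA top sets and neither DMSO wide set (0.58% of all regions), had a median of 356 bp. With overlaps counted only where each covered 50% of the other, lost regions were instead the wider ones, by 133 bp at the median relative to regions in both DMSO top sets.

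Along the chromosomes, lost regions were sparse near the ends. Of the 610, 22 (3.61%) lay within 2 Mb of the first base or of the last peak of a chromosome, against 10.2% of kept regions, 9.31% of all regions in both DMSO top sets and 9.95% of gained regions. Weakened regions, at 5.73%, and those in 1 atRA top set, at 7.75%, lay between. The difference from regions in both DMSO top sets, -5.70 percentage points, kept its sign under each alternative run, but was -3.29 with top sets of 20000, -2.96 with ranking by fold, -3.11 with reciprocal overlap of 50%, -2.41 for the 29 regions without an atRA peak and -1.97 with the limit on q. The median distance to the nearer end was 17.5 Mb for lost regions and 12.5 Mb for kept ones.

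Chromosomes differed in the share of control regions that were lost. The highest shares of regions in both DMSO top sets were on chromosome 22, with 32 of 1210 (2.64%), chromosome 13, with 40 of 1776 (2.25%), and chromosome 4, with 27 of 1237 (2.18%). The lowest were on chromosome 8, with 11 of 1783 (0.617%), chromosome 1, with 14 of 1856 (0.754%), and chromosome 2, with 16 of 1979 (0.808%). Position decides which tied peaks enter a set, and low chromosome numbers enter first, so these shares depend on ties. With all tied peaks inside their sets, the shares were 1.98%, 1.79% and 1.86% on chromosomes 22, 13 and 4, and 0.501%, 0.754% and 0.808% on chromosomes 8, 1 and 2. With all of them outside, chromosomes 8, 1 and 2 had 0.729%, 0.923% and 1.17%. Chromosomes 22, 13 and 4 stood highest with ties inside too, but with ties outside chromosome 4, at 1.80%, came after chromosomes 25, 12 and 14 as well, at 1.92%, 1.90% and 1.85%. At the low end, chromosomes 19 and 21, at 0.673% and 0.748%, came between chromosomes 8 and 1 with ties inside. With ties outside, 7 chromosomes from 24, at 0.984%, to 20, at 1.15%, came between chromosomes 1 and 2. Chromosome 22 thus stood highest and chromosome 8 lowest however ties were counted, while the places of chromosomes 13, 4, 1 and 2 depended on ties.

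**Figure D5:**
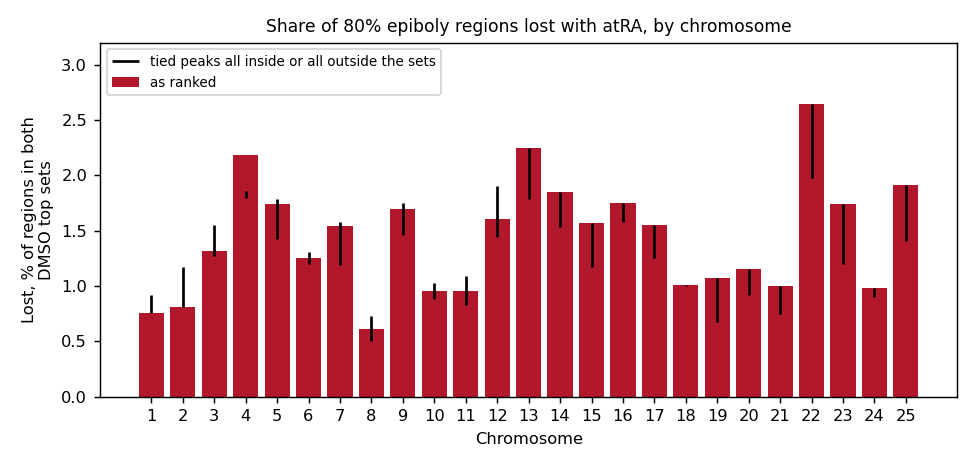
Lost regions as a percentage of the regions in both DMSO top sets at 80% epiboly, for each chromosome. Bars show the ranking as used, and black lines span the values with all tied peaks inside or all outside their sets, such as 1.98% to 2.64% on chromosome 22. On chromosome 4 the bar, at 2.18%, stands above both.

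Most lost regions stood apart from one another. With gaps of up to 50 kb joined, 542 lost regions stood alone, 26 groups held 2 of them, 4 groups held 3 and 1 group held 4. The group of 4 spanned 59.9 kb at chr20:34758541-34818402. Its members had summit pileups of 13 to 21 in atRA replicate 1, against 42 to 51 in DMSO replicate 1, and none was in a later top set. Within that span were 4 other regions in both DMSO top sets, of which 2 were kept. Of the 486 other control regions within 10 kb of a lost region, 68.3% were kept and 13.6% were weakened. Among the 41917 control regions farther away, 73.3% were kept and 8.76% were weakened. Kept regions were thus the majority even beside a lost one.

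The groups of 3 differed in what followed. In the group at chr6:27500121-27563814, the member gained at 12 somites stood beside 2 others, chr6:27500121-27500404 and chr6:27531825-27532119, that were in no later top set. In the group at chr14:32349302-32414790, chr14:32414435-32414790 was in 7 of the 8 later top sets, missing at 12 somites only in DMSO replicate 1 (rank 58641), and 6 of 8 other control regions of the span were kept. A second group on that chromosome, at chr14:32838295-32901650, held chr14:32838295-32838634, also in 7 later top sets, chr14:32855408-32855626, in 6, and chr14:32901372-32901650, which had no peak in any later list. Members of a group of 3 therefore did not share one later course. No member of the group of 4 was in a later top set, and the same held for 68.2% of all lost regions.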

How the data were processed

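The authors deposited 1 peak list per library for 12 libraries, so replicates were not pooled. Per the submitters' processing notes, Bowtie2, SAMtools and MACS2 were used and the build was GRCz10 (danRer10). Versions, settings and any read shift are not given in the sources used here. The peak names speak of nucleosome-free fragments; choosing short fragments would leave out sites covered by longer ones alone. Each list, as deposited, holds a fold ratio over local background, −log10 p-values and q-values, a summit, and a score equal to 10 times the −log10 q-value, cut to a whole number. They are the authors' own values for single peaks, normalized within each list only, and folds or pileups given side by side from different lists are a description.

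Peaks on chromosomes 1 to 25 were used, with overlaps of at least 1 bp, in Python 3.11.15 with numpy 2.4.6, pandas 2.3.3 and scipy 1.17.1. Whole-number summit pileups fitted the fold and Poisson p of all peaks within 0.001. The finding of planted lost regions was tested on simulated data. The simulated lists were copies of 1 deep control list with noise, and the planted losses were strong. Unequal depth and unlike replicates were therefore not tested. Members, classes and lists were chosen with earlier results of these data known, so no test over members was made. Named regions are the 8 of best control rank, 6 without an atRA peak, 4 in all later top sets, 4 without a later peak, those gained later, those at the limits and groups of 3 or more. No genome or annotation of the build was used, so sequences, motifs and neighbouring genes are not analysed here. The alternatives were other set sizes, ranking by fold, a q-value limit, overlap, summit windows, definitions of absence, ties, and leaving out each library.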

Additional observations from a re-analysis of the deposited data

Results flagged for a closer look

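The difference between atRA and DMSO in the share of lost regions found in the top set had opposite signs at the later stages. At 12 somites both atRA libraries (12.0% and 11.3%) lay above both DMSO libraries (8.36% and 8.85%), a difference of 3.03 percentage points. At 24 hpf the order was turned round, with 13.9% and 14.1% in atRA libraries and 15.1% and 14.8% in DMSO libraries, a difference of -0.902 points. The difference between the stages was not tested. The same turn of sign was seen for all regions (0.911 and -0.722 points), kept regions (1.25 and -1.30), all regions in both DMSO top sets (1.67 and -1.43), those in 1 atRA top set (2.33 and -2.11) and weakened regions (3.59 and -1.18), so it was not particular to lost regions. The gained regions of 80% epiboly kept 1 sign, with 4.86 points at 12 somites and 4.03 points at 24 hpf. Background pileups were higher with atRA in each library at 12 somites than in either DMSO library. At 24 hpf they were 2.03 and 1.98 with atRA and 1.39 and 2.03 with DMSO. The part of background pileup was not tested at either stage.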

How the results depend on the processing

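No paired analysis was possible because the results come from no test. The low shares of lost regions in later top sets, relative to control regions (all regions in both DMSO top sets), kept their sign under each alternative run, while counts of lost regions followed the limits chosen. Differences below are in percentage points, and the stage difference is 24 hpf minus 12 somites in DMSO embryos. Under the alternatives, regions lost again or gained later were counted among lost regions only. Shares over all regions were not computed there, so those counts cannot be set against such a share.

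With top sets of 20000 and wide sets of 40000, 248 regions were lost, of which 165 were in no later top set and 2 in all. The atRA minus DMSO difference at 12 somites was 6.45, the mean share at 24 hpf 15.9% (-46.3 from control regions), and the stage difference 9.27. With top sets of 100000 and wide sets again of double that size, 1750 regions were lost, 996 in no later top set, 35 in all, 8 lost again and 16 gained later. Mean shares were 14.5% (-53.3) at 12 somites and 18.3% (-45.8) at 24 hpf, with an atRA minus DMSO difference of -0.457 at 24 hpf and a stage difference of 5.69.

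Ranking by fold gave 946 lost regions, 636 in no later top set, 13 in all, 1 lost again and 6 gained later. The differences from control regions were -55.1 at 12 somites and -45.8 at 24 hpf, and atRA minus DMSO at 24 hpf was -0.529. Taking all peaks with a −log10 q of at least 3, which lets the depth of a list set its length, gave 76731 lost regions, 39672 in no later set, 514 in all, 2026 lost again and 3611 gained later. Shares were 14.9% (-31.8) at 12 somites and 13.8% (-26.0) at 24 hpf, atRA minus DMSO was 9.17 and -4.74, and the stage difference was 5.84.

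Requiring reciprocal overlap of 50% gave 1620 lost regions, 1001 in no later top set, 31 lost again and 55 gained later, with atRA minus DMSO of 7.72 and -2.65, differences from control regions of -49.1 and -41.4, and a stage difference of 8.95. It also reversed the difference of median widths, lost minus control regions, to 133 bp, against -79 bp with overlaps of 1 bp, and the cause was not tested. With windows of 100 bp either side of summits, shares were 12.5% (-54.2) and 16.7% (-45.6), atRA minus DMSO was 2.38 and -1.81, 12 lost regions were in all later top sets and 3 were lost again.

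Defining absence as no atRA peak left 29 lost regions, 24 in no later top set, 0 in all and 0 gained later. Shares were 3.45% at each stage (-64.1 and -59.9), atRA minus DMSO was 6.90 and 0, and the stage difference was 3.45. Defining it as outside the top set gave 4346, with 2080 in no later top set, 214 in all, 9 lost again and 23 gained later. Shares were 22.4% (-45.1) and 27.3% (-36.0), and the stage difference was 7.24. With tied peaks inside their sets, 5 lost regions were in all later top sets. The share at 24 hpf was then 13.6%, atRA minus DMSO there -0.294 and the stage difference 5.88. With tied peaks outside, atRA minus DMSO at 24 hpf was -1.26.

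Leaving out each of the 12 libraries in turn gave 610 to 2156 lost regions, 419 to 1130 of them in no later top set, 7 to 78 in all, 0 to 5 lost again and 3 to 11 gained later. Mean shares ran from 8.67% to 20.3% at 12 somites (-57.9 to -47.2) and from 12.9% to 26.4% at 24 hpf (-49.1 to -36.9). The atRA minus DMSO difference ran from 1.299 to 6.19 at 12 somites and from -1.95 to -0.117 at 24 hpf, and the stage difference from 2.30 to 11.3.

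Fragment totals are unknown, so no counting interval is given. A missing peak shows only a signal under the caller's threshold at that list's depth, and the shallowest lists were 12 somites DMSO replicate 1 and 80% epiboly atRA replicate 2.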
